A study of Mus musculus with 26 samples.

Results

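The genes that lengthen and desaturate fatty acids were followed in a subcutaneous fat depot, the inguinal white adipose tissue, of mice without the transcription factor ChREBP. They are 10 genes picked by name: the elongases Elovl1, Elovl2, Elovl4, Elovl5 and Elovl7, the reductase Hsd17b12, and the desaturases Fads1, Fads2, Fads3 and Scd3. The rule of choice held no measured value, but earlier results of these data were known when it was made. All 10 had at least 1 tested probe, among 25407 gene names tested. The array carried 25 probes under these names among 56605 non-control probes. Of the 25, 22 passed the filter on spot detection and were tested, among 38832 tested probes. The samples were 26 arrays of 1 mouse each. Total ChREBP KO mice (n = 7) were Mlxipl-null and lacked the α and β isoforms, and they were compared with WT mice of that line (n = 7). ChREBPβ KO mice (n = 5) lacked only the shorter isoform, after CRISPR deletion of exon 1b of Mlxipl in embryos, and had WT littermates of their own line (n = 7). Both deletions are in the germline, hence present in every tissue and not only in adipocytes. Per the labels and the study's methods all mice, WT included, were C57BL6/J males that went without food for 24 h before 18 h of refeeding on food and water that held 20% glucose. The labels give no age.

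Elongation takes place in the endoplasmic reticulum in a cycle. An ELOVL enzyme condenses an acyl-CoA with malonyl-CoA, and the product is reduced, dehydrated and reduced again, with HSD17B12 performing the first of these reductions. FADS2 and FADS1 act in turn, with ELOVL5 and ELOVL2 between and after them, to make arachidonic and docosahexaenoic acids from dietary precursors, whereas SCD enzymes make monounsaturated fatty acids and ELOVL1 and ELOVL4 make the very long chains of sphingolipids and of skin, brain and retina. In adipose tissue and liver, ChREBP and SREBP-1c are known as activators of lipogenic genes, with Elovl6 and Scd1 among them.

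Values are log2 intensities of the median spot signal after quantile normalization, and a difference of 1 is a doubling of the signal. A probe is called changed at an adjusted p under 0.05 in limma. Arrays were alike in quality, with 70.2% to 76.5% of spots well above background, 0 saturated member spots, and Pearson's r between arrays across probes from 0.953 to 0.997. The targeted gene fitted the labels at its brightest probe, A_55_P2119957 of Mlxipl. It read 16.02 ± 0.32 in WT (SD, n = 7) and 13.81 ± 0.15 in KO (n = 7) of the total line, and 15.70 ± 0.30 in WT (n = 7) and 14.16 ± 0.20 in KO (n = 5) of the ChREBPβ line, with no overlap between KO and WT in either. Against WT the total ChREBP KO differed by -2.21 (adjusted p = 2.14e-12) and the ChREBPβ KO by -1.54 (adjusted p = 3.22e-06). Of the other Mlxipl probes, A_55_P2728555 was lower in total ChREBP KO (-0.91, adjusted p = 2.29e-06) and missed the threshold in ChREBPβ KO (-0.68, adjusted p = 0.0585), while A_55_P2045158 was called in neither (-0.14 and 0.04, adjusted p = 0.142 and 0.969). All 12 adipocyte markers were well above background on every array. So were all 15 markers of lymphocytes and lymph node, and none of these was at 0. Their mean log2 level, called the lymphocyte score, was between 10.90 and 12.44 in WT of the total line, between 8.03 and 11.21 in total ChREBP KO, between 7.41 and 8.41 in WT of the ChREBPβ line and between 7.40 and 8.95 in ChREBPβ KO. WT of the total line was thus above both groups of the ChREBPβ line on every array and overlapped total ChREBP KO. In bulk tissue, fewer cells of a type and less RNA per cell cannot be told apart.

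**Figure D1:**
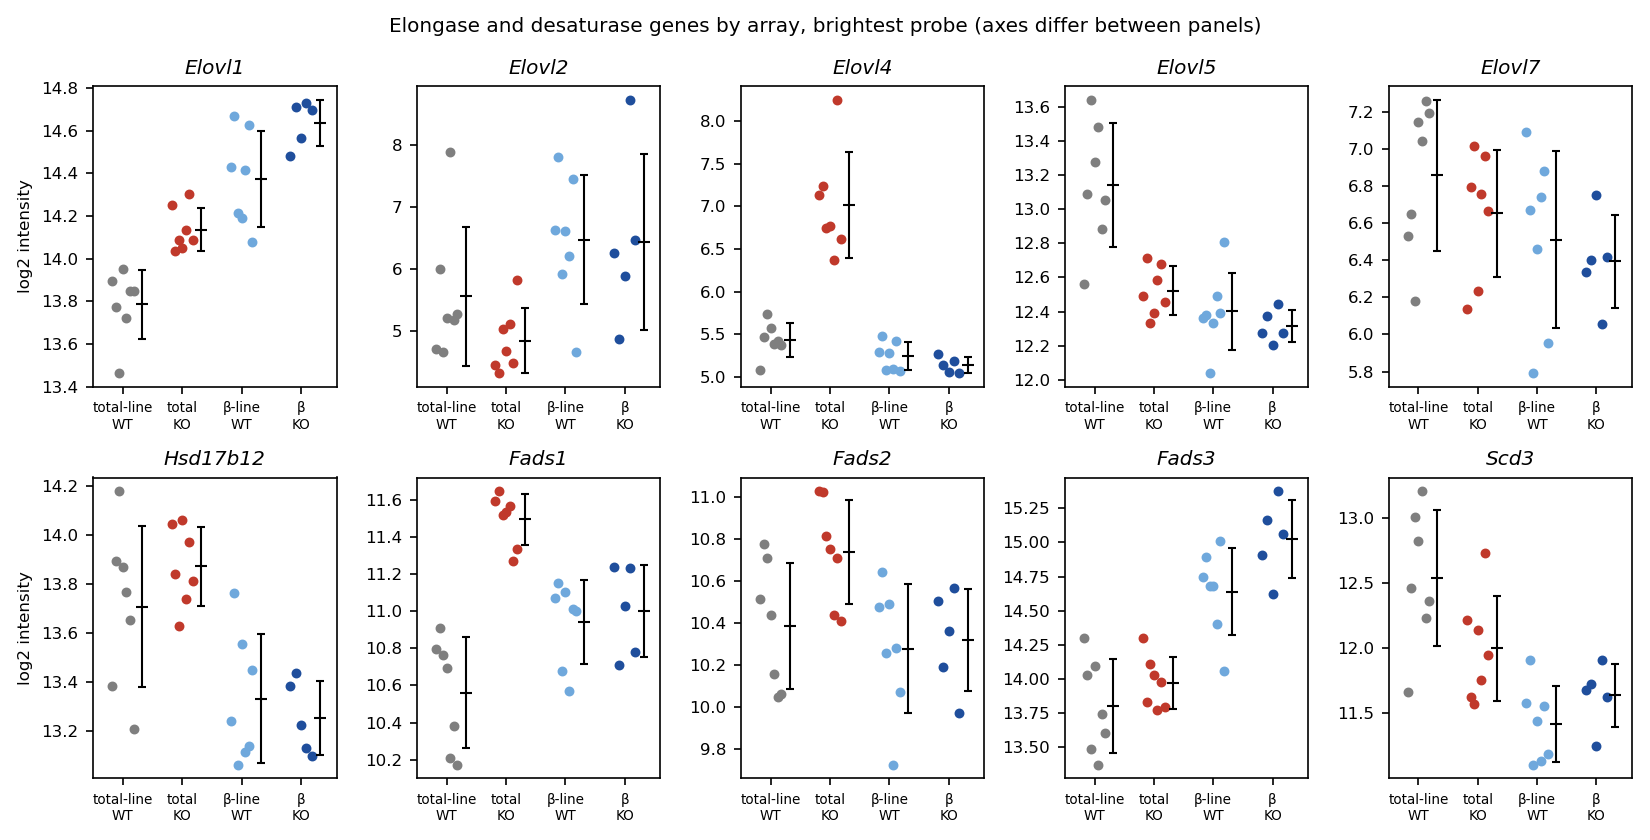
Log2 intensity (y axis) of the brightest probe of each of the 10 genes on every array (points), in WT and KO of the total line and WT and KO of the ChREBPβ line, with the mean and SD of each group beside its points. Elovl4 and Fads1 of all 7 total ChREBP KO mice lie above every other array, whereas in Elovl5 and Elovl1 WT of the total line is the group that lies highest or lowest.

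In total ChREBP KO 6 of the 10 genes differed from WT past the threshold at their brightest probe, 4 higher and 2 lower, and in ChREBPβ KO 0 did. For Scd3 that probe is shared with Scd1. In total ChREBP KO against its WT, 15 of the 22 member probes were called, 10 higher and 5 lower. Across all tested probes 45.6% were called, 26.3% higher and 19.3% lower. At the brightest probe of each gene, 6 of 10 genes were called (45.9% of all genes). Elovl4, Fads1, Fads2 and Elovl1 were higher (26.2% of all genes), and Elovl5 and Scd3 were lower (19.7% of all genes). The members called higher were a larger share than over the array and those called lower a similar share, in a set of few genes. KO and WT arrays did not overlap for 8 of 22 member probes, against 14.2% of all probes. The median absolute difference over the 10 genes was 0.45, against 0.21 over all genes. Between the WT groups of the lines, without a KO allele, it was 0.48 over the 10 genes and 0.21 over all genes. These medians include Elovl2, which was close to background, and Scd3 at the probe shared with Scd1. In ChREBPβ KO, limma called 0 of 22 member probes (0.0361% of all probes), and 3 of 22 had an unadjusted p under 0.05 (7.91% of all probes). KO and WT arrays failed to overlap at 0 of 22 member probes (0.402% of all probes). The median absolute difference there was 0.10 over the 10 genes and 0.08 over all genes.

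**Figure D2:**
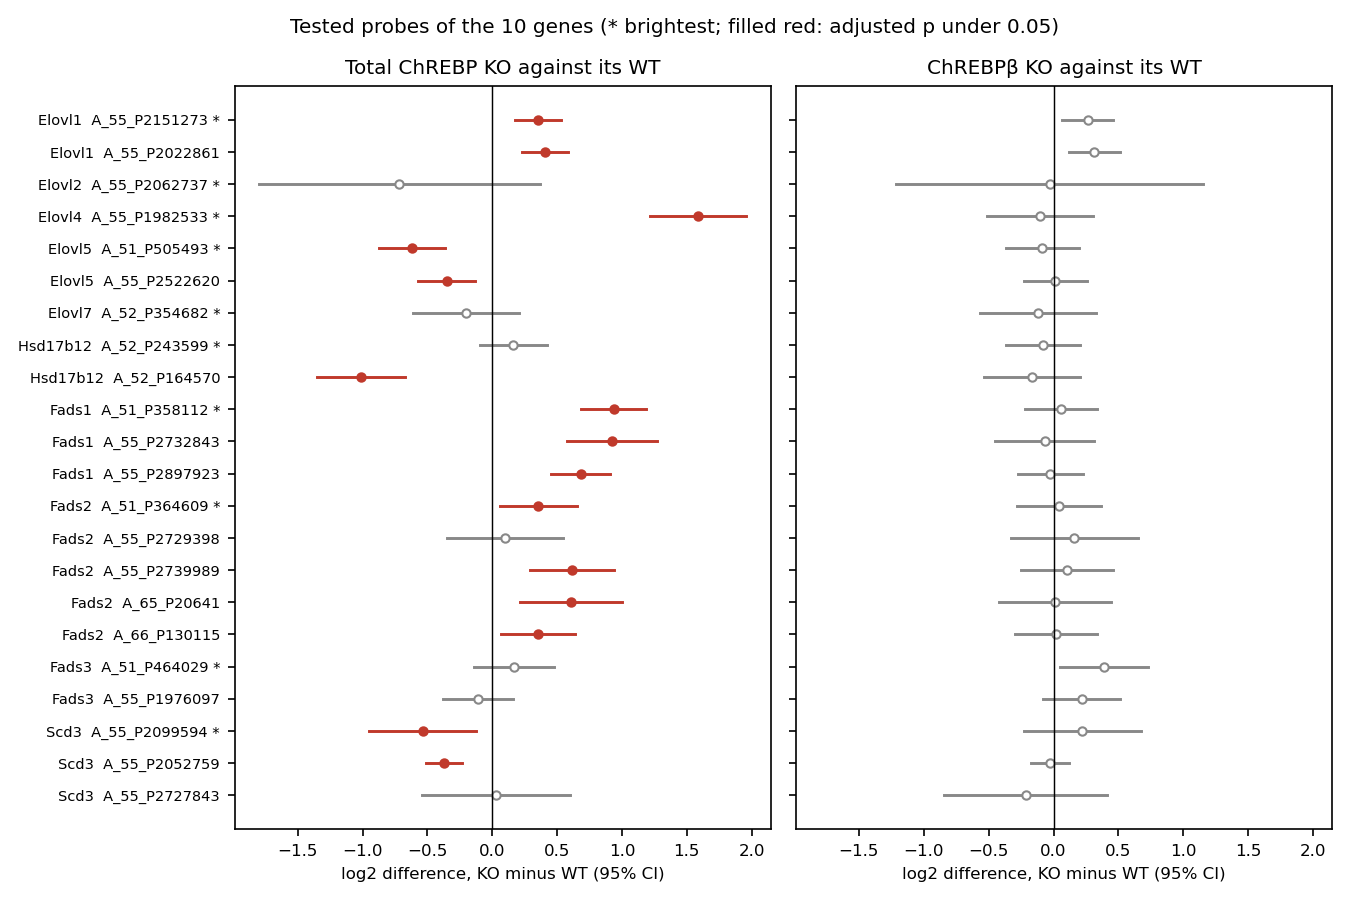
Log2 difference of KO minus WT (x axis) with its 95% confidence interval for each of the 22 tested probes, in the total line (left) and the ChREBPβ line (right). Filled red points have an adjusted p under 0.05 in limma. In the total line the points run from -1.01 to 1.59, and in the ChREBPβ line from -0.22 to 0.39 with 0 called.

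Elovl4, which makes very long saturated and polyunsaturated chains, showed the largest difference of the 10 genes in total ChREBP KO. Its single probe, A_55_P1982533 (mm9 chromosome 9, 83673253 to 83673312, minus strand), was dim but well above background on all 26 arrays. Log2 intensity was between 5.08 and 5.74 in WT of the total line (median 5.42) and between 6.37 and 8.25 in KO (median 6.77). In the ChREBPβ line it was between 5.07 and 5.48 in WT (median 5.28), and the 5 KO arrays read 5.27, 5.14, 5.05, 5.19 and 5.04. All 7 total ChREBP KO arrays were higher than all 19 other arrays, and the other 3 groups overlapped one another. The difference from WT was 1.59 (SE 0.18, adjusted p = 1.31e-07, exact permutation p = 0.000583, the smallest that the 3432 regroupings of these arrays can give), that is 3.00-fold. In ChREBPβ KO it was -0.11 (95% interval from -0.51 to 0.30, adjusted p = 0.965). Within the total ChREBP KO group the highest array (replicate 7) had a lymphocyte score of 8.08 and the lowest (replicate 5) one of 10.34. Replicate 4, with a score of 8.66, read 6.77, and replicate 2, with 10.82, read 7.24. Replicate 7 also had the highest mean marker levels of skeletal muscle (12.83), epidermis and sebaceous gland (7.73) and epithelium (8.60) in this group. Their part in its Elovl4 level was not tested. Elovl4 was the member gene with the strongest within-group relation to the lymphocyte score apart from Scd3 (r = -0.55 over 26 arrays as deviations from group means, which share normalization). The KO difference was 1.03 with lymphocyte and skeletal muscle scores as covariates (adjusted p = 0.00237), and between 1.21 and 1.97 within the 4 wash batches of the labels.

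Elovl1, the broadly expressed elongase of very long saturated and monounsaturated chains, was also higher in total ChREBP KO, but there WT of the total line was the group apart. Probe A_55_P2151273 (mm9 chromosome 4, 118105163 to 118105222, plus strand) lay between 13.46 and 13.95 in WT of the total line (median 13.85) and between 14.04 and 14.30 in its KO (median 14.09). WT of the ChREBPβ line lay between 14.08 and 14.67 (median 14.42), and the 5 ChREBPβ KO arrays read 14.48, 14.71, 14.57, 14.73 and 14.70. All 7 WT arrays of the total line were lower than the 19 others, and the remaining groups overlapped between neighbours. The KO difference was 0.35 (SE 0.09, adjusted p = 0.00171) at this probe and 0.41 at A_55_P2022861 (adjusted p = 4.50e-04). In ChREBPβ KO both probes were also above WT, by 0.26 and 0.31, with unadjusted p of 0.0101 and 0.00286 and adjusted p of 0.452 and 0.331. Adding the lymphocyte score to the fit ended the call in total ChREBP KO (0.26, adjusted p = 0.155), and so did lymphocyte and muscle scores together (0.21, adjusted p = 0.290). A further Elovl1 probe, A_55_P2721757, was above background on 0 arrays and was not tested.

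Elovl5, which lengthens the polyunsaturated products of FADS2, moved in the opposite direction. At A_51_P505493 (mm9 chromosome 9, 77832205 to 77832264, plus strand), WT of the total line lay between 12.56 and 13.64 (median 13.09) and its KO between 12.33 and 12.71 (median 12.49). WT of the ChREBPβ line lay between 12.04 and 12.81 (median 12.38), and the 5 ChREBPβ KO arrays read 12.27, 12.38, 12.20, 12.44 and 12.28. The 3 groups other than WT of the total line had overlapping ranges, and WT of the total line overlapped total ChREBP KO through its lowest array. Total ChREBP KO fell by 0.62 (SE 0.12, adjusted p = 0.000251), to 65.1% of WT. The dimmer probe A_55_P2522620 also fell, by 0.35 (adjusted p = 0.00883), with no overlap between KO and WT. The direction held within all 4 wash batches, from -1.23 in batch 1 to -0.11 in batch 2. The call held when the lymphocyte score was added (-0.74, adjusted p = 0.00398) and ended with slide as a fixed block (-0.58, adjusted p = 0.0531). A further Elovl5 probe, A_55_P2718343, did not pass the full detection filter and was not tested. It was well above background on 7 WT and 6 KO arrays of the total line and on 5 WT and 5 KO arrays of the ChREBPβ line.

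Elovl7, an elongase of saturated and monounsaturated chains, was called in no comparison. Probe A_52_P354682 had means of 6.86 in WT and 6.65 in KO of the total line, and of 6.51 in WT and 6.39 in KO of the ChREBPβ line. The 4 groups overlapped, and the difference of -0.21 in total ChREBP KO had a 95% interval from -0.61 to 0.20.

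Elovl2, which prolongs long polyunsaturated chains and is best known from liver, was close to background. Probe A_55_P2062737 (mm9 chromosome 13, 41277884 to 41277943, minus strand) was well above background on 6 of 7 WT and 3 of 7 KO arrays of the total line and on 6 of 7 WT and 4 of 5 KO arrays of the ChREBPβ line. Levels were between 4.66 and 7.90 in WT and between 4.32 and 5.82 in KO of the total line, and between 4.66 and 7.82 in WT of the ChREBPβ line, while the 5 ChREBPβ KO arrays read 6.27, 4.86, 5.89, 8.74 and 6.47. All groups overlapped, and the difference of -0.72 in total ChREBP KO did not pass the test (SE 0.52, adjusted p = 0.273). Of all genes with a known name, the levels most like those of Elovl2 within groups were of Cyp2a12, C8b and Fbp1 (r = 0.95, 0.94 and 0.94 over 26 arrays), which are genes of liver. A list of 12 liver genes, Alb and Apoa2 among them, was added after this had been seen. Their mean log2 level, called the liver score, was between 7.57 and 12.28 over the 26 arrays, and its r with Elovl2 as deviations from group means was 0.89 (Spearman's rho = 0.86). Single genes of the list had r between 0.77 and 0.93, apart from Cyp2e1 with -0.17. The highest Elovl2 arrays, ChREBPβ KO replicate 5 (8.74) and total-line WT replicate 6 (7.90), had the highest liver scores, 12.14 and 12.28. Why liver transcripts varied between arrays was not tested.

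**Figure D3:**
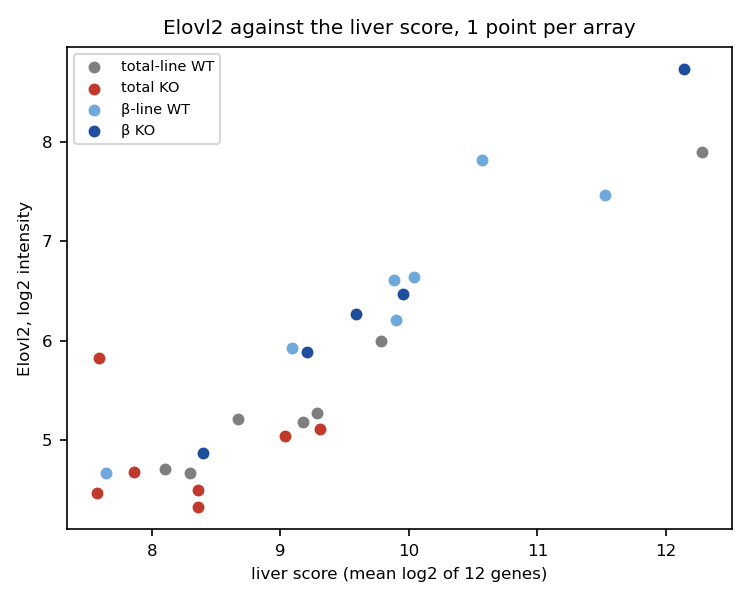
Log2 intensity of Elovl2 (y axis) against the liver score, the mean log2 intensity of 12 liver genes (x axis), with 1 point per array coloured by group. The 2 arrays with the highest Elovl2, at 8.74 and 7.90, also have the highest liver scores, 12.14 and 12.28, while 1 total ChREBP KO array with Elovl2 at 5.82 lies off the trend at a low score.

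Hsd17b12, the reductase of the cycle, gave different answers at its probes. The brightest, A_52_P243599 (mm9 chromosome 2, 93873719 to 93873778, minus strand), had means of 13.71 in WT and 13.87 in total ChREBP KO, a difference of 0.16 that did not pass the test (SE 0.13, adjusted p = 0.300). Probe A_52_P164570 (93955017 to 93955076) is assigned to another transcript model of the gene. It lay between 8.10 and 9.25 in WT of the total line and between 7.02 and 8.03 in total ChREBP KO, without overlap, and fell by 1.01 (SE 0.16, adjusted p = 2.17e-05), to 49.6% of WT. WT of the ChREBPβ line lay between 7.36 and 7.91 at this probe, and the ChREBPβ KO mean was 7.44, so that WT of the total line was above all 19 other arrays. Within groups the probes correlated at r = 0.50. A change of the gene as a whole in total ChREBP KO is therefore not given here.

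Among the desaturases, Fads1 rose most in total ChREBP KO. FADS1 introduces the last unsaturation on the way to arachidonic acid, and FADS2 the first on the same way. Probe A_51_P358112 of Fads1 (mm9 chromosome 19, 10270530 to 10270589, plus strand) lay between 10.17 and 10.91 in WT of the total line (median 10.69) and between 11.27 and 11.65 in KO (median 11.54). WT of the ChREBPβ line lay between 10.57 and 11.15 (median 11.01), and the 5 ChREBPβ KO arrays read 11.24, 10.71, 11.03, 11.24 and 10.78. As for Elovl4, all 7 total ChREBP KO arrays were above the 19 others, here narrowly (lowest 11.27, against 11.24 in the highest ChREBPβ KO array). The difference from WT was 0.93 (SE 0.12, adjusted p = 1.07e-06), or 1.91-fold, and the other probes gave 0.92 (A_55_P2732843, adjusted p = 8.34e-05) and 0.68 (A_55_P2897923, adjusted p = 2.18e-05). At these dimmer probes the total ChREBP KO arrays overlapped those of the ChREBPβ line. Means at A_55_P2732843 were 9.38 in WT and 9.31 in KO of the ChREBPβ line, above 9.18 in total ChREBP KO. WT of the total line was lowest there (8.25), without overlap with WT of the ChREBPβ line. For A_55_P2897923 total ChREBP KO had the highest mean (6.44), against 6.28 in WT and 6.25 in KO of the ChREBPβ line. In ChREBPβ KO the brightest probe differed by 0.06 (95% interval from -0.22 to 0.33). The rise in total ChREBP KO was between 0.79 and 1.14 within the 4 wash batches and 0.84 with lymphocyte and muscle scores as covariates (adjusted p = 0.00231).

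Fads2, the rate-limiting desaturase of polyunsaturated synthesis, rose less and less firmly. At A_51_P364609 (mm9 chromosome 19, 10138750 to 10139180, minus strand), WT of the total line lay between 10.04 and 10.77 (median 10.44) and its KO between 10.41 and 11.03 (median 10.75). WT of the ChREBPβ line lay between 9.72 and 10.64, and the 5 ChREBPβ KO arrays read 10.50, 10.19, 10.36, 10.57 and 9.97. Neighbouring groups overlapped. The difference in total ChREBP KO was 0.35 (SE 0.14, adjusted p = 0.0459), and 4 of the 5 probes were called higher, by 0.35 to 0.61, with A_55_P2729398 at 0.10 (adjusted p = 0.729). The call at the brightest probe was lost in 17 of 43 alternatives, among them the fit with the lymphocyte score (0.15, adjusted p = 0.667). Leaving out any of 12 single arrays also lost it, at differences from 0.30 to 0.36 and adjusted p from 0.0502 to 0.106. These were total-line WT replicates 5, 6, 7 and 8, total ChREBP KO replicates 1, 2, 3, 4 and 7, ChREBPβ-line WT replicates 3 and 7 and ChREBPβ KO replicate 4.

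Fads3, whose product desaturates sphingoid bases, was not called in either KO. At A_51_P464029 (mm9 chromosome 19, 10132641 to 10132700, plus strand) the total line lay between 13.37 and 14.30 in WT and between 13.78 and 14.30 in KO, a difference of 0.17 (95% interval from -0.14 to 0.48). In ChREBPβ KO it was 0.39 above WT (unadjusted p = 0.0255, adjusted p = 0.554), the highest value of the 22 probes in that comparison. The genes Fads1, Fads2 and Fads3 lie next to one another, with probes spread over 137949 bp of chromosome 19.

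Scd3, a stearoyl-CoA desaturase known from skin, was read by probes that did not respond alike. Probe A_55_P2052759 (mm9 chromosome 19, 44318249 to 44318308, plus strand) is annotated to Scd3 alone. It lay between 9.19 and 9.53 in WT of the total line (median 9.27), between 8.78 and 9.15 in its KO (median 8.91) and between 8.68 and 9.02 in WT of the ChREBPβ line (median 8.80), while the 5 ChREBPβ KO arrays read 8.77, 8.79, 8.86, 8.70 and 8.93. WT of the total line was above all 19 other arrays, and the other groups overlapped. Total ChREBP KO fell by 0.37 (SE 0.07, adjusted p = 5.59e-05), to 77.3% of WT, and ChREBPβ KO differed by -0.03 (95% interval from -0.17 to 0.12). The brightest probe, A_55_P2099594, has annotated accessions of both Scd1 and Scd3. Within groups its r was 0.65 and 0.80 with the Scd1 probes, 0.69 with the Scd3 probe A_55_P2727843 and 0.14 with A_55_P2052759. Which transcript it reads was not settled, and its difference of -0.54 (SE 0.20, adjusted p = 0.0293) is not assigned to Scd3. Leaving out total-line WT replicate 4, 5 or 6 or total ChREBP KO replicate 2, 3 or 5 ended that call, at differences from -0.50 to -0.43. At A_55_P2727843 the difference was 0.03 (adjusted p = 0.943), and A_55_P2512897 was above background on 4 arrays of each genotype of the total line and 0 of the other line and was not tested. Scd1 at its brightest probe differed by -0.03 (SE 0.10, adjusted p = 0.847), and Scd2 was higher in total ChREBP KO (0.50, SE 0.13, adjusted p = 0.00271).

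WT of the total line stood apart from all 19 other arrays at 4 of the 22 member probes (4.68% of all probes), namely both tested Elovl1 probes, Hsd17b12 A_52_P164570 and Scd3 A_55_P2052759. Total ChREBP KO stood apart at 2 of 22, the Elovl4 probe and the brightest Fads1 probe (2.67% of all probes). Markers of other cells differed between these groups too. All 15 lymphocyte genes were lower in total ChREBP KO than in WT (median difference -2.42), 10 of 12 adipocyte genes were higher and 1 was lower (median 0.54), and 4 of 8 brown or beige genes were lower and 1 was higher (median -1.06). The adipocyte score was between 15.33 and 15.93 in WT of the total line, between 16.09 and 16.33 in its KO, and between 15.90 and 16.35 over the ChREBPβ line. The brown or beige score was between 11.36 and 13.58 in WT and between 10.84 and 11.55 in KO of the total line, and between 9.74 and 11.40 over the ChREBPβ line. Of the 12 skeletal muscle genes, 4 were higher in total ChREBP KO, with scores from 6.05 to 12.83 over all arrays. Of the 10 macrophage genes 3 were lower, of 8 tested epidermal and sebaceous genes 1 was higher and 1 lower, and of 8 tested epithelial genes 0 were called. The part of these cells in the member results was not tested beyond the fits with scores as covariates, in which 9 of 22 member probes were called with the lymphocyte score alone (15.2% of all probes) and 7 with lymphocyte and muscle scores (14% of all probes).

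**Figure D4:**
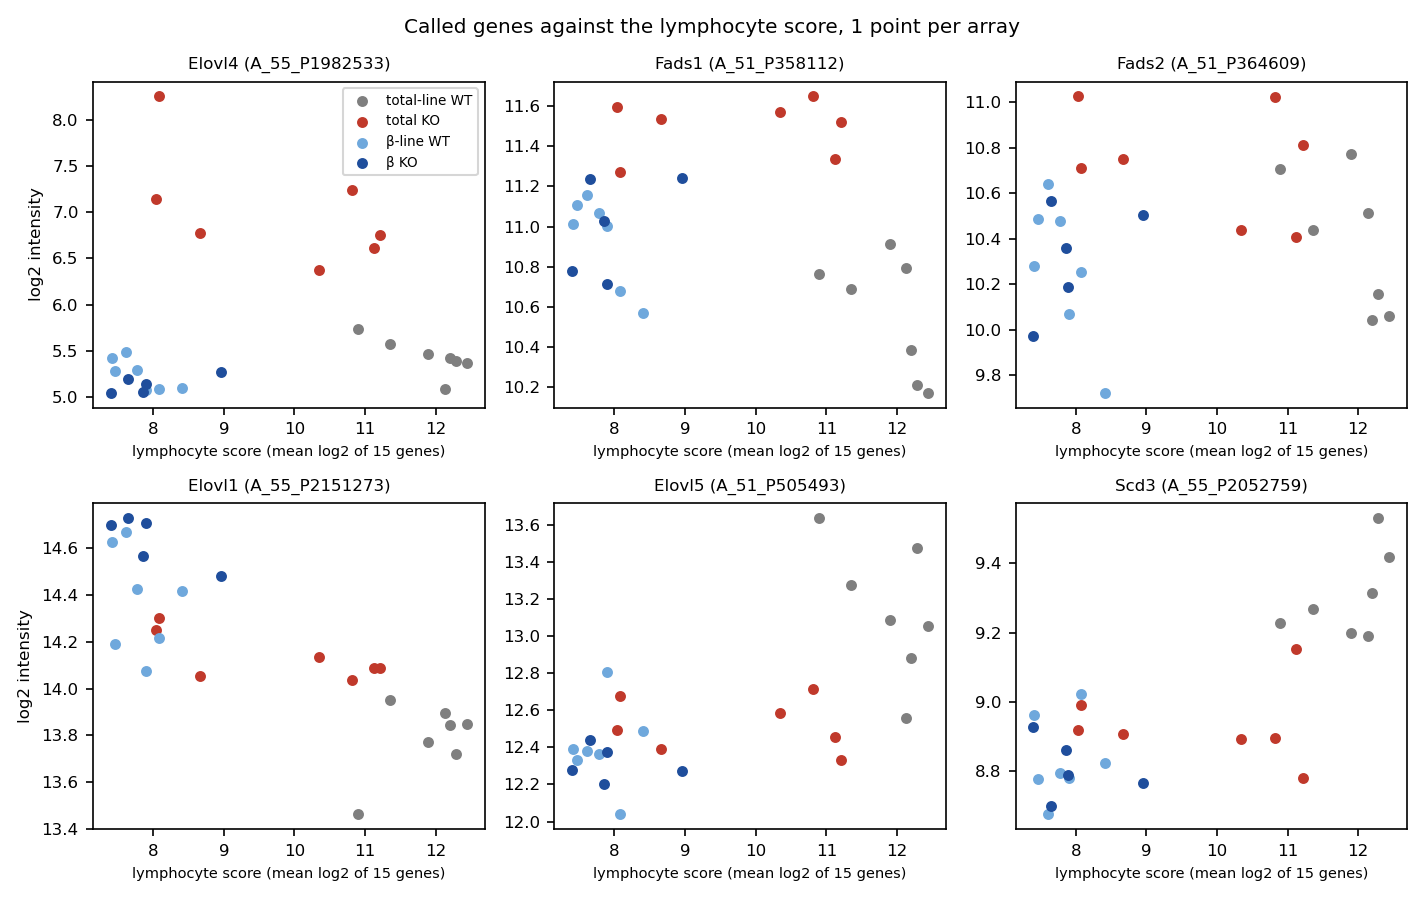
Log2 intensity (y axis) of 6 probes called in total ChREBP KO, of Elovl4, Fads1, Fads2, Elovl1, Elovl5 and Scd3 (A_55_P2052759), against the lymphocyte score, the mean log2 intensity of 15 genes (x axis), with 1 point per array coloured by group. Total ChREBP KO arrays run from a score of 8.03 to 11.21, and over that range their Elovl4 and Fads1 stay above all other arrays.

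**Figure D5:**
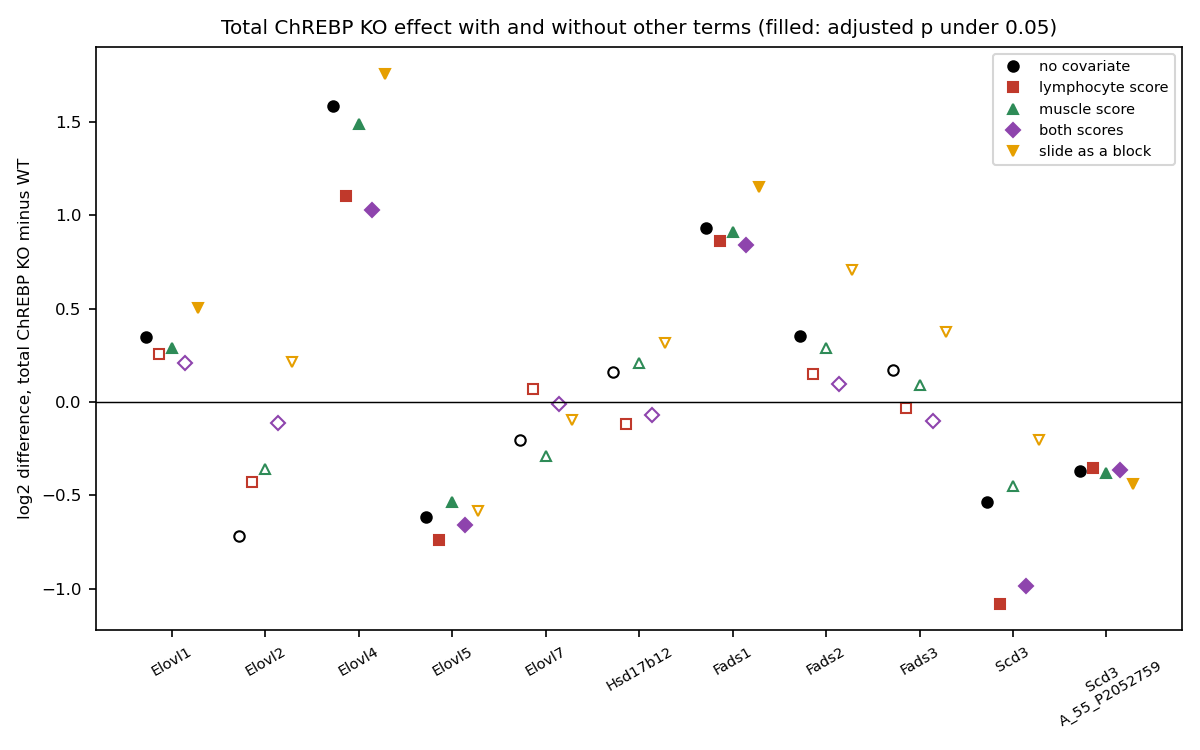
Log2 difference of total ChREBP KO minus WT (y axis) for the brightest probe of each gene and for Scd3 probe A_55_P2052759, with no other term, with lymphocyte, muscle or both scores as covariates and with slide as a block. Filled symbols have an adjusted p under 0.05, and Elovl4, Fads1 and Scd3 probe A_55_P2052759 are filled in all 5 fits.

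The WT groups of both lines were compared to see how far the lines differ without a KO allele. Of the 22 member probes 15 were called (45.2% of all probes), 7 higher and 8 lower in WT of the ChREBPβ line. Fads3 was higher by 0.83 (SE 0.15, adjusted p = 5.96e-05), Elovl1 by 0.59 (SE 0.09, adjusted p = 4.85e-06) and Fads1 by 0.38 (SE 0.12, adjusted p = 0.0122). The other Fads1 probes were higher by 1.13 (A_55_P2732843, where the total ChREBP KO differed from the same WT by 0.92) and 0.51 (A_55_P2897923). Elovl5 was lower by 0.74 (-0.74, SE 0.12, adjusted p = 2.79e-05) and Hsd17b12 by 0.38 (-0.38, SE 0.13, adjusted p = 0.0169) at its brightest probe. Scd3 was lower at A_55_P2052759 (-0.47), the tested probe that is annotated to it alone and was bright. A_55_P2727843 was lower too (-1.07) but was well above background on only 4 of 7 WT arrays of the ChREBPβ line. The probe shared with Scd1, A_55_P2099594, was also lower (-1.12) and is not assigned to Scd3. The difference was called for neither Elovl4 (-0.19, adjusted p = 0.418) nor Fads2 at its brightest probe (-0.11, adjusted p = 0.571). Of the other Fads2 probes, A_55_P2739989 was called lower (-0.40, adjusted p = 0.0396), and A_65_P20641, A_66_P130115 and A_55_P2729398 were not (-0.41, -0.29 and -0.01). Over all probes 57% of calls in this comparison were higher, and 43.4% after scaling the median signal to the 75th percentile of each array, which moved the median of all probes from 0.03 to -0.07. The WT groups failed to overlap at 5 of 22 member probes (16.1% of all probes). When the lymphocyte score was added, 5 member probes were called (4.02% of all probes). The WT groups did not overlap in this score (10.90 to 12.44 in the total line, 7.41 to 8.41 in the ChREBPβ line). That fit therefore cannot tell the score and the line apart. This comparison uses the same WT arrays as the KO comparison of the total line.

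The KO effects themselves differed at 7 of 22 member probes (22.4% of all probes), tested as the ChREBPβ effect minus the total effect. The difference was -1.69 for Elovl4 (SE 0.27, adjusted p = 7.75e-05), -0.88 for Fads1 (SE 0.18, adjusted p = 0.00118) with -0.99 and -0.71 at its other probes, 0.53 for Elovl5 (SE 0.18, adjusted p = 0.0388), 0.35 for Scd3 at A_55_P2052759 (SE 0.10, adjusted p = 0.0118) and 0.84 for Hsd17b12 at A_52_P164570 (SE 0.24, adjusted p = 0.0145). For Elovl1 it was -0.09 (95% interval from -0.35 to 0.18) and for Fads2 -0.31 (from -0.75 to 0.13), so a difference between the KO effects was not detected for these. With slide as a fixed block the calls for Elovl4 and Fads1 ended (-1.90 and -1.13, adjusted p = 0.0828 and 0.105). The 26 arrays lay on 15 slides, so that block left fewer residual degrees of freedom than the 22 of the main fit. The consensus correlation within slides was 0.0508. With the lymphocyte or muscle score or both, the Elovl4 and Fads1 calls held. The Elovl5 and Scd3 differences were less firm, as their calls ended in further fits. The Hsd17b12 difference at A_52_P164570 was not followed singly through these fits. For Scd3 at A_55_P2052759 the call ended with slide as a fixed block (adjusted p = 0.211), with the lymphocyte score in the fit (0.117) and with both scores (0.134). For Elovl5 it ended with slide (adjusted p = 0.422), with the lymphocyte score (0.0843), with the muscle score (0.093) and with both (0.144). Leaving out any of 14 single arrays also ended the Elovl5 call, at values from 0.45 to 0.54 and adjusted p from 0.0504 to 0.0673. These were total-line WT replicates 4, 5 and 6, total ChREBP KO replicates 1, 3 and 4, ChREBPβ-line WT replicates 1, 2, 3 and 4 and ChREBPβ KO replicates 1, 2, 5 and 6.

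Levels were also compared among the genes within groups, as deviations from the 4 group means over 26 arrays, which share RNA and normalization. Fads1 and Fads2 varied together most closely of the 45 pairs (r = 0.81), followed by Elovl1 and Fads3 (r = 0.66). Elovl5 and Fads3 ran opposite (r = -0.51). Probes of a single gene correlated between 0.63 and 0.93 for Fads2, between 0.68 and 0.84 for Fads1 and at 0.94 for Fads3, but between -0.14 and 0.69 for Scd3. The genes most like each member, by r over these 26 arrays among 17355 named genes, were Haus7, Eif2b3 and Lama4 for Fads1 (0.86, 0.85 and 0.85), Uxs1, Utp14b and Arhgap12 for Fads2 (0.86, 0.85 and 0.83), Lhfpl2, Mpdz and Olfm1 for Fads3 (0.91, 0.87 and 0.87), and Ndrg3, Tmem64 and Fam210b for Elovl5 (0.89, 0.88 and 0.87). For Elovl1 they were 6530402F18Rik, Rcn2 and Tmem165 (0.85, 0.84 and 0.84), for Elovl4 Pak1ip1, Hephl1 and Cbr3 (0.86, 0.83 and 0.82), for Elovl7 Mboat1, Tmem229a and Kcnk1 (0.86, 0.83 and 0.82), for Hsd17b12 Slc25a20, Mrpl51 and Myl6b (0.92, 0.90 and 0.90), and for Scd3 at its shared probe Gpx4, Pafah2 and Loxhd1 (0.86, 0.84 and 0.84).

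The sequence before the start sites was examined because Elovl5 moved in the opposite direction to Elovl4 and Fads2 in total ChREBP KO. Whether the sequence has a part in these directions was not tested. RefSeq windows on GRCm38.p6 were at hand for 9 of the 10 genes, 11 windows in all. The start of Fads1 was not analysed here. The 250 bases before the start were searched on both strands for the E-box CACGTG, a building block of the carbohydrate response element bound by ChREBP. Also searched were the exact string of 2 such E-boxes 5 bases apart and the sterol regulatory element TCACNCCAC. The CCAAT box and the LXR and PPAR repeats of AGGTCA, 4 bases and 1 base apart, completed the search. The string of 2 E-boxes overlaps the E-box by construction, and looser forms of the element were not searched. Capitals mark matches, with a CCAAT box on the other strand read as ATTGG. The windows of Elovl5 (chr9:77917115-77917364, plus strand), Fads2 (chr19:10101504-10101753, minus strand) and Elovl4 (chr9:83806306-83806555, minus strand) are given 5′ to 3′ in the direction of transcription.
Elovl5: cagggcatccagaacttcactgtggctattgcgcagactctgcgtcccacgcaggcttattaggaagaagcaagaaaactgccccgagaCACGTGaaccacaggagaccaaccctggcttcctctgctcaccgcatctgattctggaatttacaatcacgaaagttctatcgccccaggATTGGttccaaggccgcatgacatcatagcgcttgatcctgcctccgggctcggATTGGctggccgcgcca
Fads2: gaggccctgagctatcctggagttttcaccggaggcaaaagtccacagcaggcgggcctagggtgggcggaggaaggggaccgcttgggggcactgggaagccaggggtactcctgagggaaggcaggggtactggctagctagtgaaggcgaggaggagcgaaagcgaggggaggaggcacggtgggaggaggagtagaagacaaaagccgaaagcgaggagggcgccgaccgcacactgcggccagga
Elovl4: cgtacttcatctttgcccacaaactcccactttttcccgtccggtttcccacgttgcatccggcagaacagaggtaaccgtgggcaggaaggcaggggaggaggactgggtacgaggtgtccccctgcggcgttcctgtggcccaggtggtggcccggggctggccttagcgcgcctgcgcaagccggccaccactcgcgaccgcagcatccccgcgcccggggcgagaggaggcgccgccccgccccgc
Of the 9 genes, Elovl5 alone held the E-box, 161 bases before its start, together with a pair of CCAAT boxes. The E-box was in 6.02% of 32851 such windows of all genes and the CCAAT box in 33.8%. Elovl1, Fads3 and Hsd17b12 also held CCAAT boxes. The windows of Fads2, Elovl4, Elovl7, Scd3 and Elovl2 held none of the motifs. The sterol element was in 1.05% of all windows and the exact string of 2 E-boxes in 0%. The LXR and PPAR repeats were in 0.0152% and 0.0335%, so these letters are rare at this distance. As no window of any gene held the string of 2 E-boxes, its absence from the member windows cannot show whether they hold a carbohydrate response element. A match is a string of letters and not a measured binding site.

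Other genes of the same pathways are given from lists written with earlier results of these data known. The counts of called genes stand beside 26.2% higher and 19.7% lower over all genes in total ChREBP KO, and beside 26.4% higher and 19.2% lower between the WT groups (ChREBPβ line minus total line). Both comparisons share the WT arrays of the total line. Of the other enzymes of elongation, 4 of 9 tested genes were lower in total ChREBP KO and 1, Hacd1, was higher (median -0.16). Elovl6, the elongase of palmitate, fell by 3.26 (SE 0.15, adjusted p = 4.72e-14), and so did Elovl3, known from brown fat (-3.90, SE 0.59, adjusted p = 9.08e-06), and Acaca, which makes malonyl-CoA (-1.94, SE 0.12, adjusted p = 4.65e-12). In WT of the ChREBPβ line Elovl3 was lower than in WT of the total line by a similar amount (-3.47, adjusted p = 3.29e-05), and it is also among the brown or beige markers given above, whose part in the result was not tested. Between the WT groups 2 genes of this list were higher and 4 lower. In total ChREBP KO, Elovl4 and Elovl1 lay on the other side of 0 from Elovl6 and Elovl3. Of the other desaturation genes and their electron donors, 5 of 12 were higher and 1 was lower, led by Cyb5a (0.77), the ceramide desaturase Degs1 (0.66) and Cyb5b (0.52), and between the WT groups 4 were higher and 1 was lower. Of 10 acyl-CoA synthetases and acyltransferases that handle polyunsaturated chains, 4 were higher and 3 lower, against 2 higher and 4 lower between the WT groups. Acsl1 rose by 1.44, Lpcat3, which places arachidonate in phospholipids, by 0.69, and Acsl5 fell by 1.18.

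Peroxisomal genes, which shorten very long and polyunsaturated chains, were higher in 8 of 11 cases and lower in 1 (median 0.78), against 5 higher and 3 lower between the WT groups (median 0.18). The transporter Abcd2 rose by 1.19 and Ehhadh by 1.14, whereas Acox2 fell by 2.62. Of 9 tested genes of sphingolipid synthesis, where ELOVL1 products are used, 7 were higher and 0 lower (median 0.33), and between the WT groups, without a KO allele, 7 were higher and 1 was lower (median 0.36), with the ceramide synthases Cers4 (0.56) and Cers6 (0.40) and the reductase Kdsr (0.35) in front in total ChREBP KO. Of 12 regulators of desaturase and elongase genes, 7 were higher and 1 was lower (median 0.35), against 5 higher and 3 lower between the WT groups (median -0.04). Insig1, which retains SREBP in the endoplasmic reticulum, rose by 1.13, Ppara by 1.02 and Nr1h3, encoding LXRα, by 0.93. Srebf1 did not pass the test (-0.12, adjusted p = 0.422). The median over all genes was 0.05. In ChREBPβ KO, 0 genes of these lists were called by limma (0.0472% of all genes).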

How the data were processed

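RNA of 26 mice, 1 array each, was hybridised to 1-colour Agilent mouse arrays. The deposited scanner files hold spot intensities, which the authors extracted with Agilent Feature Extraction 10.10.1.1, with probe positions on mm9. The deposited value table holds log2 values of the same arrays, which the authors filtered, quantile normalized and reduced to the median of replicate spots. It served as an alternative (median absolute difference over probes 0.00267).

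Here log2 of the median signal, without background subtraction, was quantile normalized and the median of replicate spots taken. Probes well above background on 21 of 26 arrays or on 75% of a group were kept, and 97 outlier values were left empty. Background signal keeps dim probes from 0 and shrinks their differences. The fit used limma 3.58.1 in R 4.3.3 (lmFit, eBayes, 4 group means, 22 residual degrees of freedom) with Benjamini-Hochberg adjustment over 38832 probes. Exact permutation tests were two-sided. The fit was tested on simulated data. A gene was represented by its brightest tested probe. Of 25407 gene names, 17356 were in the gene table.

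Named were all members, Mlxipl, Scd1, Scd2 and Elovl6, the 3 genes of each pathway list with the largest called difference, and the 3 genes most like each member; Cyp2a12 and the other relatives of Elovl2 come from that rule. Hacd1, Srebf1, Cyp2e1, Alb and Apoa2 were chosen after their values were seen. Members and lists were chosen with earlier results of these data known, and the liver list and the covariate fits with 1 score were added after seeing the data. The limma p-values set a difference between groups against the spread between mice within groups. The number of arrays limits the precision. Alternatives covered normalization, background correction, filters, outlier spots, samples in the fit, wash batch, slide, replicate numbers, array weights, covariates, probe choice and single arrays left out.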

Additional observations from a re-analysis of the deposited data

Results flagged for a closer look

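Among 44 groups of arrays examined for an array far from the rest, 1 held such an array, and chance flags about 1 in 20 groups. It was WT replicate 6 of the total line for Elovl2, at 7.902 against 5.995 for the next array. Without that array the difference of Elovl2 between the WT groups passed the threshold (1.31, adjusted p = 0.0296 in limma).

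The effect of the ChREBPβ KO differed from that of the total ChREBP KO, by the interaction term in limma, for Elovl4 (-1.693, adjusted p = 7.75e-05), Fads1 (-0.8777, adjusted p = 0.00118), Elovl5 (0.5321, adjusted p = 0.0388) and Scd3 at probe A_55_P2052759 (0.347, adjusted p = 0.0118). Only brightest probes and this Scd3 probe were examined here. Hsd17b12 was also called at A_52_P164570 (0.84, adjusted p = 0.0145). The Elovl5 call was lost in 23 of 42 alternatives, and its other tested probe was not called (0.36, adjusted p = 0.0981).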

How the results depend on the processing

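In the total line 15 member probes were called. With slide as a fixed block 9 were called, with both the lymphocyte and the muscle score in the fit 7, and with the lymphocyte score alone, added after seeing the data, 9. Over all probes the same fits called 8386, 5423 and 5921 in place of 17691. The difference between the KO effects went from 7 member probes to 1, 4 and 4 in these fits (612, 2237 and 2376 of all probes in place of 8714), and the comparison of the WT groups from 15 to 5 with both scores and to 5 with the lymphocyte score (1212 and 1560 of all probes in place of 17552). The cause was not tested. Between the WT groups the lymphocyte score and the line cannot be told apart. The slide block left fewer residual degrees of freedom than the main fit. Leaving out single arrays gave 12 to 15 member probes in the total line, 0 to 0 in the ChREBPβ line, 6 to 8 for the difference and 14 to 16 between WT groups. The mean over both probes of Hsd17b12 turned its direction (-0.4232, adjusted p = 0.008), by way of probe A_52_P164570. Elovl4 and Fads1 kept their call in total ChREBP KO in all alternatives, at 1.03 to 2.09 and 0.84 to 1.15, and their difference between the KO effects lost it with slide as a fixed block (-1.90 and -1.13, adjusted p = 0.0828 and 0.105).

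The labels do not say whether the replicate numbers shared by KO and WT pair mice. Deviations of same-numbered arrays correlated from -0.356 to 0.508. In the total line KO replicates 4 (0.508) and 8 (0.254) were most like the WT array of the same number, and KO arrays of the other shared numbers were not. These values do not settle whether the numbers pair mice. With the replicate number as a block, 13, 0, 6 and 16 member probes were called in the total line, the ChREBPβ line, the difference and the WT comparison. Dim probes, above all Elovl2, are limited by signal over background.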
